A study of Mus musculus with 24 samples.

Results

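The nuclear-encoded genes of oxidative phosphorylation (OXPHOS) were described in mRNA sequencing data of dispersed mouse islet cells. The members were the protein-coding rows of the deposited table whose symbol starts with Nduf, Uqcr, Cox4 to Cox8 or Atp5, or equals Sdha, Sdhb, Sdhc, Sdhd or Cyc1, and no expression value entered this choice. This gave 97 of the 41549 genes in the table, namely 39 genes of complex I, 8 Ndufaf assembly factors of complex I, 4 genes of complex II, 9 of complex III, 19 of complex IV and 18 of the ATP synthase. Reads were dense enough for testing in 91 members, and the other 6 were complex IV genes with few or no reads. The islet cells, labelled as wild type, came from mice whose age and strain the labels do not give. The study's methods state both for the mice of its primary islets, which were of both sexes. The islet cells were transfected with 50 pmol of a control antisense oligonucleotide (ASO), Ctr, or of an ASO against the 5′ fragment of the glutamate tRNA with the CTC anticodon, αGlu. They were then kept for 48 h with 0.5 mM palmitate (PA), a saturated fatty acid carried on albumin, or with the carrier alone at 0.75% bovine serum albumin (BSA). Either ASO was combined with either medium (Ctr BSA and Ctr PA, αGlu BSA and αGlu PA), each with 6 of the 24 libraries, and batch 1 (S1 to S12) and batch 2 (S13 to S24) each held 3 libraries of every group. The labels do not say what a batch is. By the study's methods the groups within a biological replicate shared an animal, but no label ties a library to an animal, so libraries were not paired and the p-values below measure the spread between them. Dispersed islets are a mixture of cell types, and all groups had gone through transfection and albumin, so no untransfected islet cells were compared.

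OXPHOS is the pathway by which mitochondria turn reducing equivalents from fuels into ATP. Complex I takes electrons from NADH and complex II from succinate, ubiquinone carries them to complex III, cytochrome c carries them on to complex IV, and the proton gradient built on the way drives the ATP synthase. In β-cells the ATP made from glucose closes potassium channels and so couples fuel supply to insulin release, and fatty acids such as palmitate feed the same chain through β-oxidation. Most subunits are encoded in the nucleus, and the catalytic centres of complexes I, III and IV and part of the ATP synthase also hold subunits from mitochondrial DNA.

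Total counts per library ranged from 18214719 to 35001979, and the members together held 0.483% to 0.640% of them. Counts were scaled by the trimmed mean of M-values (TMM), and CPM below are counts divided by the library total so scaled. The members were well covered, with a median over tested members of 1213 counts per library, against 454 over all 15916 genes tested. Among the markers of the labelled tissue, Ins1 and Ins2 together held 6.23% to 11.4% of the counts, and markers of acinar, ductal, endothelial, fibroblast, macrophage and Schwann cells were also read in every group. Library S1 of Ctr BSA stood apart with the lowest total and the lowest TMM factor, 0.853, against 0.939 to 1.06 in the other libraries. Library S23 of Ctr PA stood apart with 8.83% of its counts on mitochondrially encoded genes, against 3.52% to 6.03% elsewhere. Results that rest on S1 or S23 are given with and without them.

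The 97 members lay on 19 chromosomes (GENCODE M21, GRCm38), and 6 of them shared exon bases with a gene on the same strand. The clearest case was Atp5o_1, a second entry for the peripheral stalk subunit OSCP at chr16:91684398-91926982 on the minus strand, all of whose 530 exon bases were shared with Donson or with the main Atp5o entry, Atp5o_2. Its 0 to 87 counts per library are therefore uncertain. The sources used here do not say how reads that fit several copies of a gene were counted, which bears on all genes with processed pseudogenes.

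Promoter sequences are shown because 19 members were raised by PA both in Ctr and in αGlu cells, as described further on. RefSeq promoter windows (GRCm38.p6, from 250 bases before to 50 after the transcript start) matched 75 of the 97 members by symbol, with 80 windows in all. The hexamer TGCGCA, the half-site of the NRF1 factor known for respiratory chain genes, was read on either strand in 20 of the 80, or 25%, of the members' windows and in 9.74% of the 21263 windows of all protein-coding genes. The letters CCGGAAG of ETS factors such as GABPA stood in 23.8% against 11.6%, and ATGGCGG of YY1 in 16.2% against 5.25%. The shares were closer for AGGTCA of nuclear receptors, with 21.2% against 14.7%, for CCAAT with 43.8% against 38.2%, for GGGCGG of SP factors with 45.0% against 46.2%, and for TATAAA with 11.2% against 12.6%. A motif in a window is a match of letters and not evidence of binding. The median GC content was 58.5% in the members' windows and 56.3% in all windows, and the part of this difference in the shares was not tested. Of the 13 members raised in both PA comparisons that had a window, 7 held TGCGCA, 7 GGGCGG, 5 CCAAT, 4 AGGTCA, 3 CCGGAAG, 2 ATGGCGG and 0 TATAAA. Over all 75 members with a window, these 13 included, the counts were 19, 35, 34, 17, 19, 12 and 8 in the same order. Whether the 13 differ from the other members was not tested.

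The upstream sequences of 6 of these genes are shown from 5′ to 3′ on the strand of the gene. They end before the RefSeq and the GENCODE start. Atp5a1 and Ndufa2, also raised in both, were left out of this choice whatever their adjusted p. The 6 are those of smallest adjusted p among the other members raised in both that had a suitable window. Suitable was a single window with at least 200 bases clear of both annotated starts, and so upstream of the first exon. Capitals mark the motif letters named above, on either strand. Sequences run from 211 to 250 bases, and positions are counted back from the RefSeq start. Exons of neighbouring genes within these sequences were not looked for, so a match may lie in such an exon.
Ndufaf4 (chr4:24897833-24898082, plus strand): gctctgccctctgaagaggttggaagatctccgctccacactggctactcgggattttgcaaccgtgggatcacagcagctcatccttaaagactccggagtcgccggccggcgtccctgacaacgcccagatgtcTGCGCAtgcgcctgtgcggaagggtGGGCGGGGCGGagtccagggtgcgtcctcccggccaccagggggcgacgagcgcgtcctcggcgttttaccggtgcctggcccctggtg
Sdhd (chr9:50603850-50604099, minus strand): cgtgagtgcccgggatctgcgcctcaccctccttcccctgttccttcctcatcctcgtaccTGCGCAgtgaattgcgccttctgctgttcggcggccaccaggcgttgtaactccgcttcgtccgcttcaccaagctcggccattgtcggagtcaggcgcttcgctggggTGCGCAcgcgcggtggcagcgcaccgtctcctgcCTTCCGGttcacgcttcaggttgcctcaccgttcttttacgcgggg
Ndufa9 (chr6:126849145-126849394, minus strand): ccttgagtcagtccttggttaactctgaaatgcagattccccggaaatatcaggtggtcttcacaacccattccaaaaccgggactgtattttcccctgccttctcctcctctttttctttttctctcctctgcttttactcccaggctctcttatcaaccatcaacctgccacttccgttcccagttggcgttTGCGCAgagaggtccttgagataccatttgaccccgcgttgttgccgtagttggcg
Atp5g1 (chr11:96075671-96075881, minus strand): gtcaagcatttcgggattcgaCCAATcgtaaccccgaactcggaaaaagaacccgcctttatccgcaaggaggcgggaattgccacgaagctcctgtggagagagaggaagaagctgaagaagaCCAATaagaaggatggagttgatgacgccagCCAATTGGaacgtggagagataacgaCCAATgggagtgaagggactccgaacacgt
Ndufb3 (chr1:58586147-58586383, plus strand): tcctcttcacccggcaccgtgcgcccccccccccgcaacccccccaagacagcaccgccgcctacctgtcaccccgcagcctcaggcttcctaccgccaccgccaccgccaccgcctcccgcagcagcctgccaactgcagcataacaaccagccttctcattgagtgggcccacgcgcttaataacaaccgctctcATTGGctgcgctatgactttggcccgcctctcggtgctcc
Cox7b (chrX:106015450-106015699, plus strand): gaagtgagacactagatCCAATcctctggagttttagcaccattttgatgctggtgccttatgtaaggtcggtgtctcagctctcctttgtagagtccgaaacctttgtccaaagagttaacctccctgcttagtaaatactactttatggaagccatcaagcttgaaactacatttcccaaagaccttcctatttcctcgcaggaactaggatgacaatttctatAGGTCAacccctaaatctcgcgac

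The first 3 genes share TGCGCA, 114 bases before the start in Ndufaf4, 189 and 80 bases in Sdhd and 56 bases in Ndufa9. Ndufaf4 also holds overlapping GGGCGG letters at 89 and 84 bases. Sdhd also holds the ETS letters, reversed, 46 bases before its start. Atp5g1 differs in that it has no TGCGCA and 5 matches of CCAAT on either strand, 2 of which overlap. Ndufb3 holds CCAAT 53 bases before its start, and Cox7b holds it 233 bases before its start and AGGTCA at 24 bases. The 6 sequences therefore share no single motif of those searched.

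Levels per transcript length differed widely among the members. The deposited transcript levels per length (TPM), summed over the members, were 8211 ± 578 in Ctr BSA against 9370 ± 999 in Ctr PA, and 8492 ± 369 in αGlu BSA against 9690 ± 474 in αGlu PA (SD, n = 6 libraries each). The highest mean TPM was that of Atp5a1, the α subunit of the catalytic F1 head, with 448, followed by Cox7a2l with 389, a factor that joins complexes III and IV into supercomplexes. Cox8a followed with 377 and the complex I gene Ndufa1 with 337. The median over a complex was 62.9 TPM for complex I, 100 for complex II, 116 for complex III and 75.7 for the ATP synthase. The 8 Ndufaf assembly factors, which help to build complex I without staying in it, were lower, from 3.95 to 21.5 TPM with a median of 12.4.

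Where a subunit has isoforms, 1 form dominated in most cases. Cox4i1 had a mean TPM of 228 and its lung and hypoxia form Cox4i2 of 0.502, Cox6b1 had 258 and the testis form Cox6b2 1.29, and Cox7b had 102 and Cox7b2 0.122. Cox8a had 377 TPM, while Cox8b and Cox8c were at 0 counts in all 24 libraries. Cox7a2 had 144 TPM against 0.904 for the heart and muscle form Cox7a1. The heart and muscle form Cox6a2 was an exception, with 39.8 TPM beside 240 for Cox6a1. Ndufa4, now placed in complex IV, had 137 TPM and its hypoxia-inducible paralog Ndufa4l2 2.33. The c-ring of the ATP synthase is encoded by 3 genes for the same mature protein, and all 3 were read, Atp5g2 with 149 TPM, Atp5g3 with 118 and Atp5g1 with 42.3. Complex II has a single gene per subunit here, with 185 TPM for Sdhd, 135 for Sdha, 65.7 for Sdhb and 63.6 for Sdhc. Besides Cox4i2, Cox7a1, Cox7b2, Cox8b and Cox8c, the pseudogene-like Cox5b-ps (0.328 TPM) failed the filter on low counts. The inhibitor of the ATP synthase, Atp5if1, stands in the table under its older symbol Atpif1, which RefSeq pairs with the newer name, and the choice of members by symbol did not take it in. Atpif1 was at 55.3 to 69.5 CPM (median 59.8) in Ctr BSA and 47.6 to 67.7 CPM (median 64.1) in Ctr PA, groups that overlapped, with a change of 0.04 ± 0.07 (edgeR, adjusted p = 0.73). In αGlu cells it was at 54.6 to 67.6 CPM (median 62.1) with BSA and 63.2 to 72.4 CPM (median 66.5) with PA, also overlapping, with a change of 0.12 ± 0.07 (edgeR, adjusted p = 0.24).

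**Figure D1:**
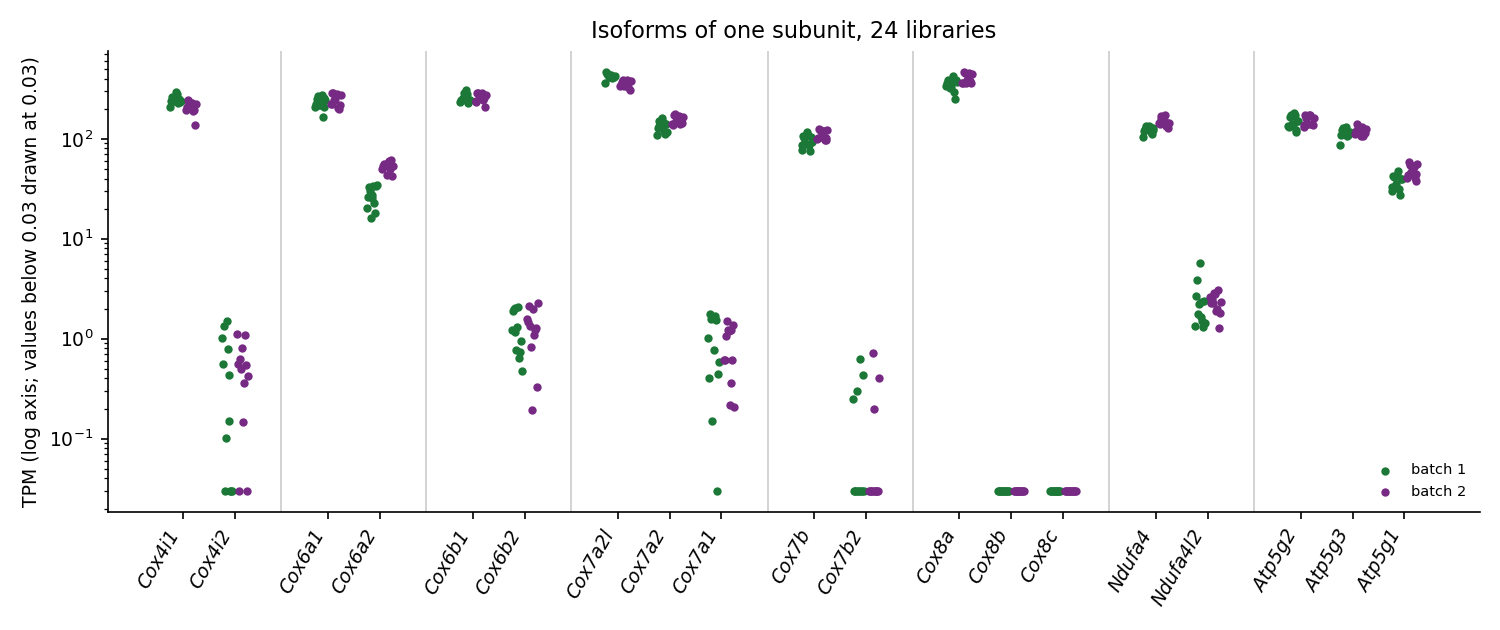
Deposited TPM (log axis) of the isoforms of each subunit in the 24 libraries, 1 point per library and coloured by batch, with values below 0.03 drawn at 0.03. A single form lies far above the others for Cox4, Cox6b, Cox7b and Cox8, whereas by mean Cox6a2 at 39.8 TPM and the 3 c-ring genes at 42.3 to 149 TPM lie nearer to their partners.

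PA raised OXPHOS genes in Ctr cells by small amounts. Of the 91 tested members, 23 (25.3%) were raised at an adjusted p below 0.05 (edgeR quasi-likelihood test, Benjamini-Hochberg over all genes) and 0 were lowered, while 15.5% of all genes tested were raised and 14.5% lowered. In direction, 81 of 91 members were higher with PA, and their median log2 fold change was 0.14 with 0.01 over all genes. Genes that resemble the members in length and read count also tended upward. Among the 497 other protein-coding genes within the members' quartiles of exon length (1062 to 2732 bases) and mean count (674 to 1795), 29.2% were raised and 7.85% lowered, with 70.6% higher and a median of 0.10. The share of raised members therefore lay above that of all genes and below that of these genes, and the share of lowered members lay below both. The 91 members are not limited to these quartiles. Of the 24 members within them 8 (33.3%) were raised and 0 lowered, with a median of 0.15, so their share of raised lay near that of the 497 genes. At the study's threshold, an absolute log2 fold change above 1 together with p below 0.05 before adjustment, 0 members passed, against 5.91% of all genes.

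All parts of the pathway were represented among the raised genes. They numbered 8 of 39 in complex I, 1 of 8 Ndufaf factors, 2 of 4 in complex II, 4 of 9 in complex III, 3 of 13 tested in complex IV and 5 of 18 in the ATP synthase. The medians by complex were close to each other, from 0.11 in the Ndufaf factors to 0.15 in complex IV, with 0.12 in complex I, 0.14 in complex II, 0.14 in complex III and 0.13 in the ATP synthase. Within complex I, the raised genes included the core subunits Ndufs3 and Ndufv2, which belong to the arm that takes electrons from NADH, and the accessory subunits Ndufa2, Ndufa5, Ndufa9, Ndufb3 and Ndufb6. In complex II both membrane anchors were raised, Sdhc and Sdhd, and the catalytic subunits Sdha (0.10 ± 0.04, adjusted p = 0.085) and Sdhb (0.13 ± 0.07, adjusted p = 0.15) did not pass. In complex III the raised genes were both redox subunits, Cyc1 and Uqcrfs1, the core protein Uqcrc2 and the ubiquinone-binding Uqcrq.

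**Figure D2:**
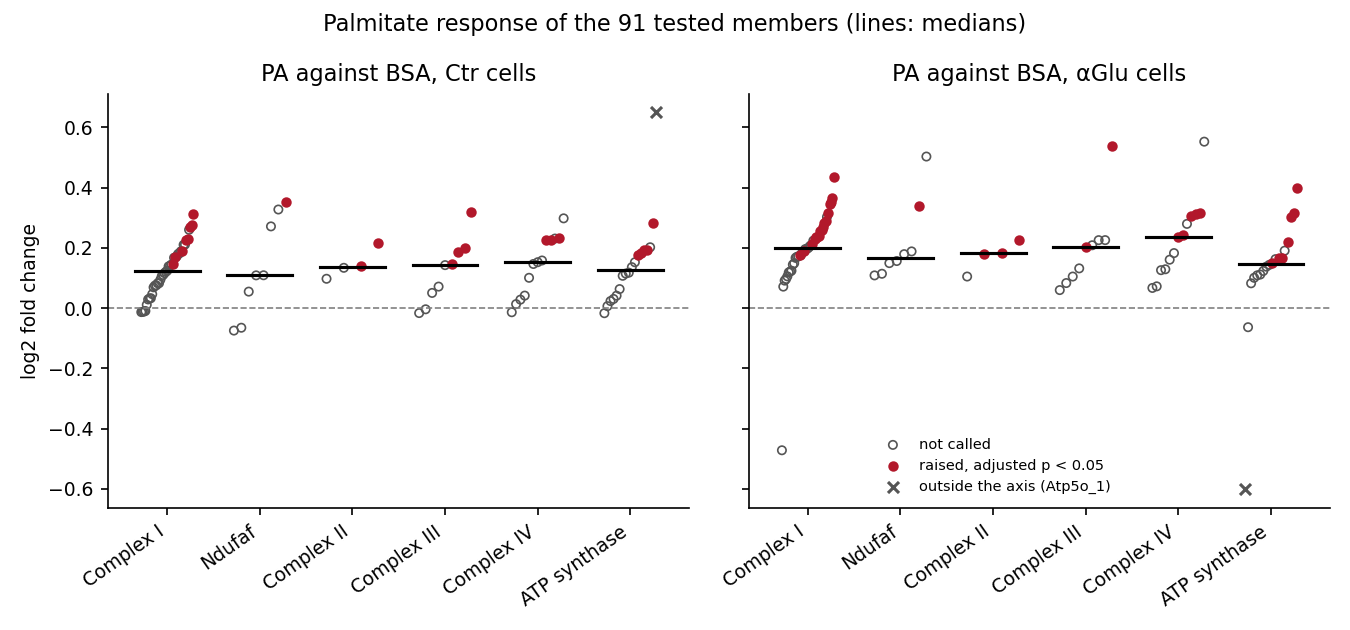
Log2 fold change of PA against BSA for each tested member (1 point each), by complex, in Ctr cells and in αGlu cells, with filled points for members raised at an adjusted p below 0.05 and a line at the median of each complex. Crosses mark Atp5o_1, which lies outside the axis. In both panels nearly all points lie above 0, with medians of 0.11 to 0.15 in Ctr cells and 0.15 to 0.24 in αGlu cells.

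The smallest p belonged to Ndufaf4, a factor that assembles the hydrophilic arm of complex I. It was read at 12.8 CPM in the lowest, 16.9 in the median and 18.6 in the highest Ctr BSA library, and at 18.8, 20.04 and 23.8 CPM in Ctr PA, so that the groups did not overlap. Its log2 fold change was 0.35 ± 0.07 (SE, adjusted p = 5.6e-04), and within batches it was 0.34 and 0.36. Sdhc, a membrane anchor of complex II, ran from 55.6 over 70.4 to 80.5 CPM in Ctr BSA and from 69.5 over 79.1 to 91.9 CPM in Ctr PA. Sdhc also differed between batches and the groups overlapped, with a change of 0.21 ± 0.05 (adjusted p = 0.0014) that was 0.26 in the libraries of batch 1 and 0.16 in those of batch 2. Atp5a1 rose from a median of 464 CPM (425 to 523) to 526 CPM (493 to 576), by 0.19 ± 0.05 (adjusted p = 0.0025). Atp5c1, the γ subunit that turns within the F1 head, was at 105 to 113 CPM (median 109) in Ctr BSA and at 119 to 131 CPM (median 124) in Ctr PA, a narrow spread in both. These groups did not overlap, and the change was 0.19 ± 0.05 (adjusted p = 0.0034). Uqcrfs1, the Rieske iron-sulfur protein of complex III, was at 49.6 to 55.2 CPM (median 52.2) and 56.8 to 67.3 CPM (median 59.4), again without overlap, with a change of 0.20 ± 0.05 (adjusted p = 0.0051). These 3 were the only members whose Ctr PA libraries all lay above the Ctr BSA libraries, 3 of 91 beside 2.97% of all genes.

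Changes in the other complexes had the same small size. The largest in complex I was that of Ndufb3, a small accessory subunit of the membrane arm, with 16.9 to 25.6 CPM (median 21.5) in Ctr BSA and 21.8 to 32.2 CPM (median 25.4) in Ctr PA. It rose by 0.31 ± 0.08 (adjusted p = 0.0055). The largest in complex III was that of Uqcrq, from a median of 56.6 CPM (47.9 to 74.8) to 72.4 CPM (58.9 to 103), by 0.32 ± 0.12 (adjusted p = 0.040). In complex IV the raised genes were Cox7b, Cox7c and Cox6a1, which flank the catalytic core, by 0.22 to 0.23. The largest value in complex IV was that of Cox6b2 with 0.30 ± 0.45, which did not pass (adjusted p = 0.65). The largest in the ATP synthase was that of Atp5o_1, 1.43 ± 0.86 (adjusted p = 0.22), at 0 to 0.996 CPM in these groups. Cox4i1, Cox6b1 and Ndufa4 had values near 0, with 0.04 ± 0.10, -0.01 ± 0.09 and 0.03 ± 0.07, and did not pass. Of the c-ring genes, Atp5g1 was raised by 0.28 ± 0.08 (adjusted p = 0.0059), while Atp5g2 had 0.20 ± 0.08 (adjusted p = 0.059) and Atp5g3 0.11 ± 0.07 (adjusted p = 0.21).

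Within each batch the direction held with fewer calls, and their share did not exceed that of all genes. The median was 0.11 in batch 1 with 76 of 91 members higher, and 0.13 in batch 2 with 82 higher, and with 3 libraries per group 4 members (4.4%) and 3 members (3.3%) were raised, beside 6.63% and 5.91% of all genes. With upper-quartile scaling 12 members (13.2%) were raised beside 13.7% of all genes, so the excess over all genes depended on the scaling. The count of raised members depended on single libraries. It was 37 without Ctr BSA library S1 and 57 without S1 and S23, and it fell to 9 without Ctr BSA library S13, 10 without Ctr PA library S7, 11 without Ctr PA library S15, 12 without Ctr BSA library S5 and 13 without Ctr BSA library S9. No member was lowered in any of these fits. Of the 23 raised members, 9 passed in each of the 24 fits that left out 1 library, namely Ndufaf4, Sdhc, Atp5a1, Atp5c1, Uqcrfs1, Ndufb3, Ndufa9, Atp5g1 and Atp5pb, while Cox6a1 passed in 3, Ndufv2 in 5 and Ndufa2 in 6.

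Markers of other cells moved with PA in Ctr cells. Of 7 tested fibroblast and stellate cell markers 6 were lowered, with their summed CPM at 134 to 563 in Ctr BSA and 11.2 to 63.1 in Ctr PA. Of 8 macrophage markers 6 were lowered (summed 79.1 to 365 CPM against 85.4 to 129 CPM), and of 8 acinar markers 6 were lowered (403 to 21375 CPM against 215 to 8091 CPM). Of 10 β-cell markers 3 were raised and 3 lowered, and 3 of 8 alpha, delta and PP cell markers and 3 of 6 ductal markers were lowered. None of these markers was at 0 in all libraries of a group. In such bulk samples fewer cells of a type and less RNA per cell cannot be told apart, and the part of these shifts in the members' change was not tested.

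**Figure D3:**
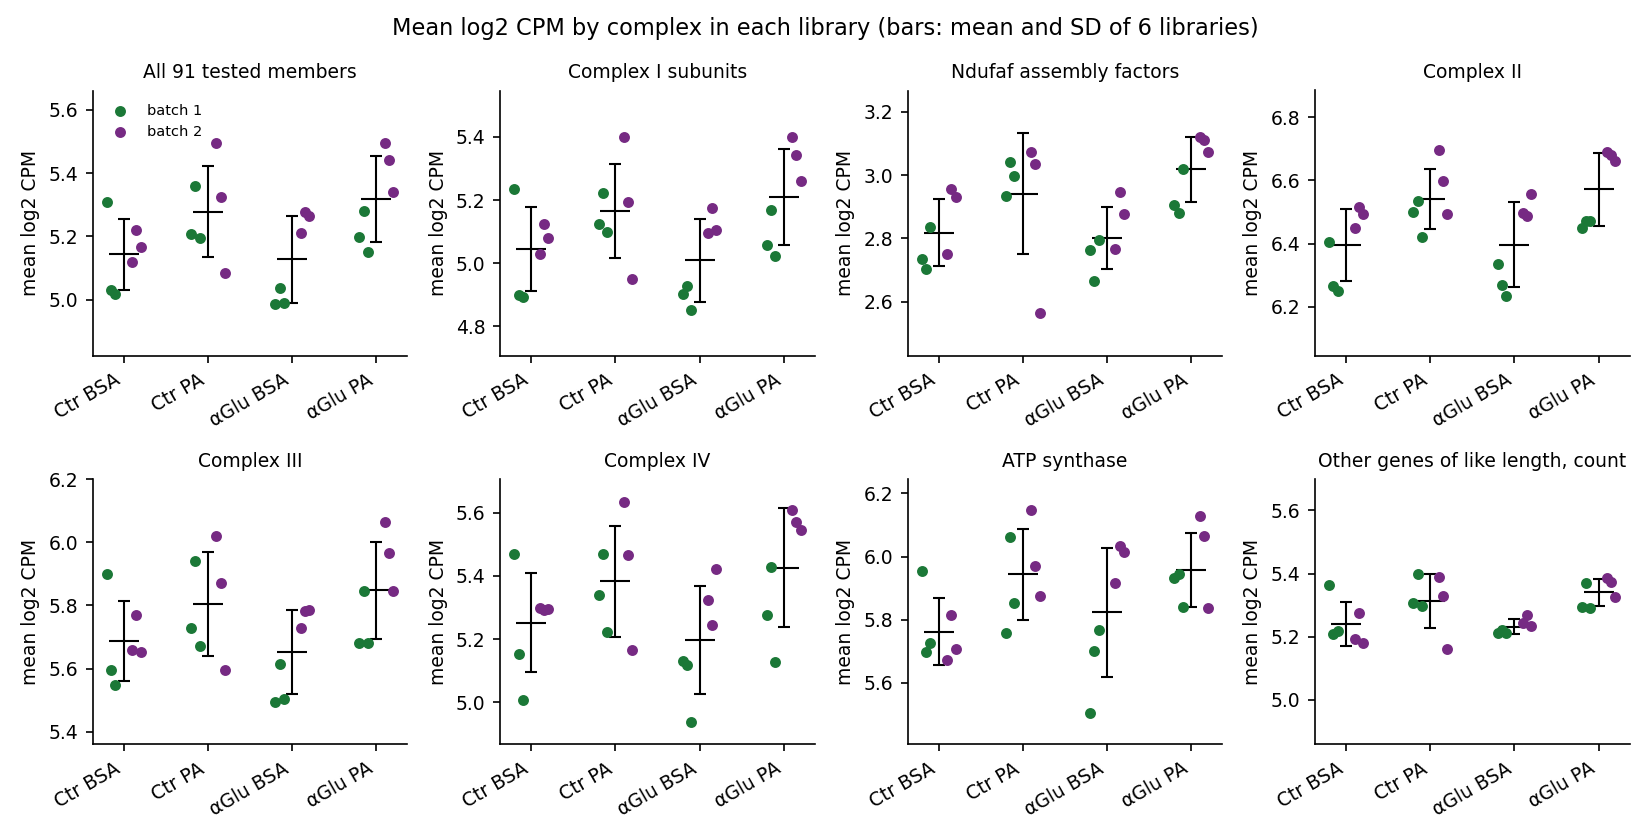
Mean log2 CPM of the tested members of each complex in each library (1 point each, coloured by batch), by group, with bars for the mean and SD over 6 libraries and a last panel for the 497 genes of like length and count. The axes do not start at 0. Over all members the means are 5.14 and 5.28 for Ctr cells with BSA and PA and 5.13 and 5.32 for αGlu cells, and the ranges of the groups overlap in each complex.

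Averaged over the 91 tested members, the mean log2 CPM was 5.14 ± 0.11 with BSA and 5.28 ± 0.15 with PA in Ctr cells, and 5.13 ± 0.14 and 5.32 ± 0.14 in αGlu cells (SD, n = 6). Library S1 was the highest of Ctr BSA with 5.31 and S23 the lowest of Ctr PA with 5.09, so both lay toward the other group. By summed TPM, which uses no TMM factor, S1 was instead the lowest of Ctr BSA with 7343. Relative to the 497 genes of like length and count, the members' mean log2 CPM was -0.10 ± 0.08 with BSA and -0.03 ± 0.08 with PA in Ctr cells, and -0.10 ± 0.12 and -0.02 ± 0.10 in αGlu cells, and these ranges overlapped between all groups.

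PA raised more members in αGlu cells, by count. Of 91 tested members 35 (38.5%) were raised and 0 lowered, with 14.4% of all genes raised and 14.2% lowered, and 88 of 91 were higher with a median log2 fold change of 0.18. The 497 genes of like length and count again had a high share, 33.6% raised and 5.63% lowered, with a median of 0.11. Of the 24 members of that length and count, 45.8% were raised and 0 lowered, with a median of 0.19. The raised members numbered 17 of 39 in complex I, 1 of 8 Ndufaf factors, 3 of 4 in complex II, 2 of 9 in complex III, 5 of 13 in complex IV and 7 of 18 in the ATP synthase. The medians were 0.20 in complex I, 0.17 in the Ndufaf factors, 0.18 in complex II, 0.20 in complex III, 0.24 in complex IV and 0.15 in the ATP synthase. At the study's threshold 0 members passed, against 5.57% of all genes.

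The smallest p was that of Atp5g1, a c-ring gene. It was read at 46.01, 66.2 and 81.0 CPM in the lowest, median and highest αGlu BSA library and at 66.3, 87.6 and 102 CPM in αGlu PA, and rose by 0.40 ± 0.08 (adjusted p = 2.9e-04). The groups overlapped, and the change was 0.42 within batch 1 and 0.37 within batch 2. Of the other c-ring genes, Atp5g2 rose by 0.32 ± 0.08 (adjusted p = 0.0042), and Atp5g3 had 0.16 ± 0.07 (adjusted p = 0.076). Ndufaf4 rose from a median of 15.5 CPM (13.2 to 18.5) to 19.4 CPM (16.7 to 24.95), by 0.34 ± 0.07 (adjusted p = 7.6e-04). Sdhc rose from 70.01 CPM (54.3 to 78.02) to 79.3 CPM (69.3 to 93.7), by 0.23 ± 0.05 (adjusted p = 9.3e-04). Atp5c1 rose from 104 CPM (91.2 to 118) to 119 CPM (113 to 132), by 0.22 ± 0.05 (adjusted p = 0.0011). Uqcrq, which sits beside cytochrome b in complex III, had the largest change of the 5, from 55.6 CPM (41.5 to 65.5) to 77.1 CPM (59.3 to 101), by 0.54 ± 0.12 (adjusted p = 0.0011). In each of these 5 genes the ranges of both groups overlapped. Groups without overlap were seen in 4 members, Ndufa10, Ndufa6, Ndufs7 and Cyc1, beside 4.17% of all genes.

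In complex I the raised genes included 14 of 30 accessory subunits and 3 of 7 core subunits, among them Ndufa2 with 0.43 ± 0.10 (adjusted p = 0.0027) and Ndufa6 with 0.35 ± 0.09 (adjusted p = 0.0053). In complex IV, Cox8a (0.31 ± 0.09, adjusted p = 0.015) and Cox5b (0.31 ± 0.10, adjusted p = 0.028) joined Cox6a1, Cox7b and Cox7c. Cox4i1, Cox6b1 and Ndufa4 again had low values that did not pass, 0.13 ± 0.10, 0.13 ± 0.09 and 0.12 ± 0.07. The 3 members that were lower with PA were Ndufa4l2 (-0.47 ± 0.31), Atp5o_1 (-0.89 ± 0.76) and the small ATP synthase subunit Atp5md (-0.06), and none passed. Medians within batches were 0.17 and 0.20, with 5 raised members (5.49%) beside 5.09% of all genes in batch 1 and 7 (7.69%) beside 5.87% in batch 2. The count was 23 without αGlu BSA library S2, 20 without αGlu PA library S16 and 52 without S1 and S23, which belong to neither of these groups and enter through the shared scaling, spread and batch term. Fibroblast markers moved here as well, 4 of 7 lowered (summed 88.6 to 1079 CPM in αGlu BSA and 12.05 to 172 CPM in αGlu PA), and 5 of 8 acinar and 1 of 8 macrophage markers were lowered. Their part in the members' change was not tested.

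The comparisons in Ctr and in αGlu cells share no libraries, but they are not independent. They come from the same fit, with shared scaling, spread and batch term, and by the study's methods the groups within a replicate shared an animal. Of the members, 19 were raised in both, 82.6% of those raised in Ctr cells and 54.3% of those raised in αGlu cells. The share of all genes raised in both was not computed, so these shares do not show an overlap particular to the members. Among the 19 were Ndufaf4, Sdhc, Atp5c1, Atp5g1, Atp5a1, Ndufa9, Ndufb3, Atp5pb, Cox7b, Cyc1, Sdhd, Uqcrq and Cox7c. The 19 come from each complex and include an assembly factor, redox carriers, rotor and stalk subunits. Another 4 passed in Ctr cells (Uqcrfs1, Uqcrc2, Ndufs3 and Atp5j) and 16 in αGlu cells, and passing in 1 of the 2 comparisons does not show that the responses differ. The difference itself, tested as the interaction, was called for 0 members and for 0% of all genes, and 0 members beside 2.09% of all genes had an unadjusted p below 0.05. Its median over the members was 0.06, with 71 of 91 above 0, and adjusted p was 0.999 in all 4 members named next. Above 0 the smallest p were those of Ndufa11 (0.20 ± 0.13, unadjusted p = 0.14) and Ndufaf6 (0.25 ± 0.17, unadjusted p = 0.15), and below 0 those of Atp5o_1 (-2.32 ± 1.16, unadjusted p = 0.056) and Uqcrfs1 (-0.09 ± 0.07, unadjusted p = 0.21). Without S1 and S23 the median difference was -0.04 with 25 of 91 above 0, so its direction rested on these 2 libraries.

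**Figure D4:**
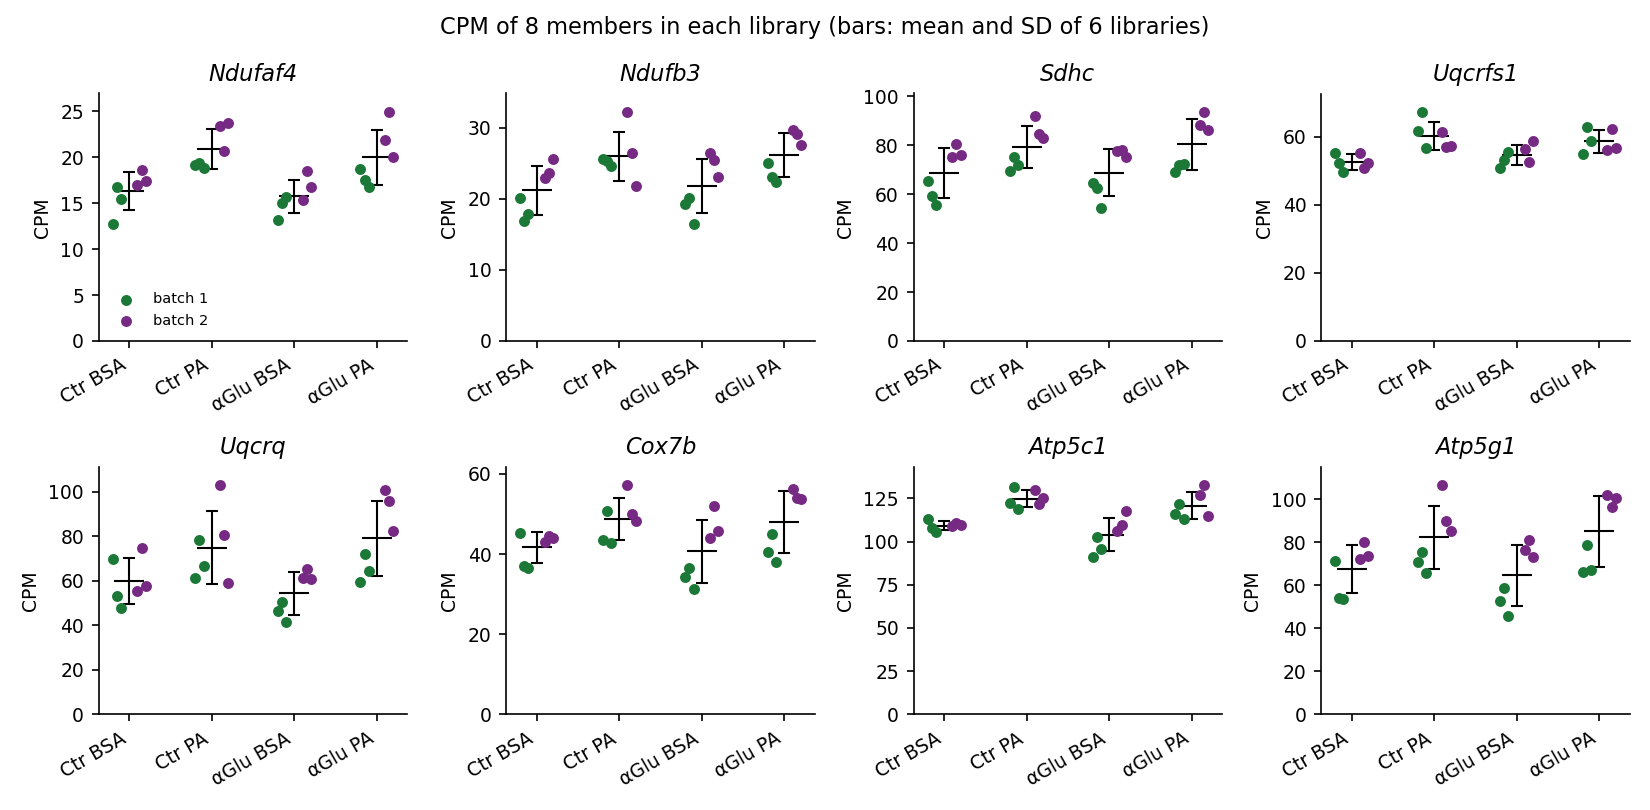
CPM (TMM-scaled, axes from 0) of 8 members in each library, by group, coloured by batch, with bars for the mean and SD over 6 libraries. For Ndufaf4, Atp5c1 and Uqcrfs1 all Ctr PA libraries lie above the Ctr BSA libraries, for the others the groups overlap.

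The αGlu ASO alone left the members within the spread of the libraries. In BSA 0 of 91 members and 0% of all genes were called, and 1 member beside 2.9% of all genes had an unadjusted p below 0.05. That member was Atp5o_1 (2.36 ± 0.84, unadjusted p = 0.00996), whose reads are shared with overlapping genes, and it was also the 1 member past the study's threshold, which 0.785% of all genes passed. It was read at 0 to 0.785 CPM in Ctr BSA and at 0 to 3.03 CPM in αGlu BSA. Next in p were Ndufaf5 above 0 (0.26 ± 0.17, unadjusted p = 0.13) and, below 0, Atp5mpl (-0.18 ± 0.09, unadjusted p = 0.054) and Cox5a (-0.15 ± 0.08, unadjusted p = 0.074). In PA 0 members and 0% of all genes were called, and 0 members beside 3.38% of all genes had an unadjusted p below 0.05. The smallest p were those of Ndufaf7 (0.11 ± 0.07, unadjusted p = 0.11) and Ndufs7 (0.19 ± 0.12, unadjusted p = 0.12) above 0, and Ndufb5 (-0.10 ± 0.06, unadjusted p = 0.13) and Ndufa4l2 (-0.37 ± 0.31, unadjusted p = 0.24) below. With DESeq2, 8 genes in BSA and 30 in PA were called among all genes, none of them a member. Adjusted p was 1.00 in BSA and 0.993 in PA for each of these members in the edgeR fit.

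The direction of the αGlu values differed between the batches, of which batch 1 held S1 and batch 2 held S23. In BSA the members' median was -0.14 in batch 1, with 12 of 91 higher, and 0.07 in batch 2, with 72 higher. In PA it was -0.05 in batch 1, with 27 of 91 higher, and 0.13 in batch 2, with 81 higher. Pooled over batches the medians were -0.04 in BSA, with 28 of 91 higher (0.00 with 50 higher when scaled by library totals alone), and 0.04 in PA, with 60 higher. The pooled medians turned with S1 and S23, to 0.02 in BSA without S1 and to -0.01 in PA without S23. In batch 1 the members' mean log2 CPM was 5.31 in S1 and 5.03 and 5.02 in the other Ctr BSA libraries. It was 4.99, 5.04 and 4.99 in αGlu BSA. In batch 2 the mean was 5.09 in S23 and 5.49 and 5.33 in the other Ctr PA libraries, and 5.50, 5.44 and 5.34 in αGlu PA. No fit by batch was made without S1 or S23, so their part in the split between batches was not tested. A fit with a coefficient for each group in each batch called a difference between batches in 0 members in either medium, with 7 members at an unadjusted p below 0.05 in BSA beside 2.17% of all genes, and 3 in PA beside 2.26%. The smallest p were those of Cox7b in BSA (0.33 in batch 2 minus batch 1, unadjusted p = 0.024) and Cox7a2 in PA (0.33, unadjusted p = 0.027). For Cox7b the αGlu effect in BSA was -0.22 in batch 1 and 0.11 in batch 2. Of the Schwann and glial markers, 7 of 8 in BSA and 7 of 8 in PA had an unadjusted p below 0.05, with medians of -2.55 and -3.16 and none called, and 5 of 8 macrophage markers did so in BSA (median -1.09). The part of these cells in the members' values was not tested.

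**Figure D5:**
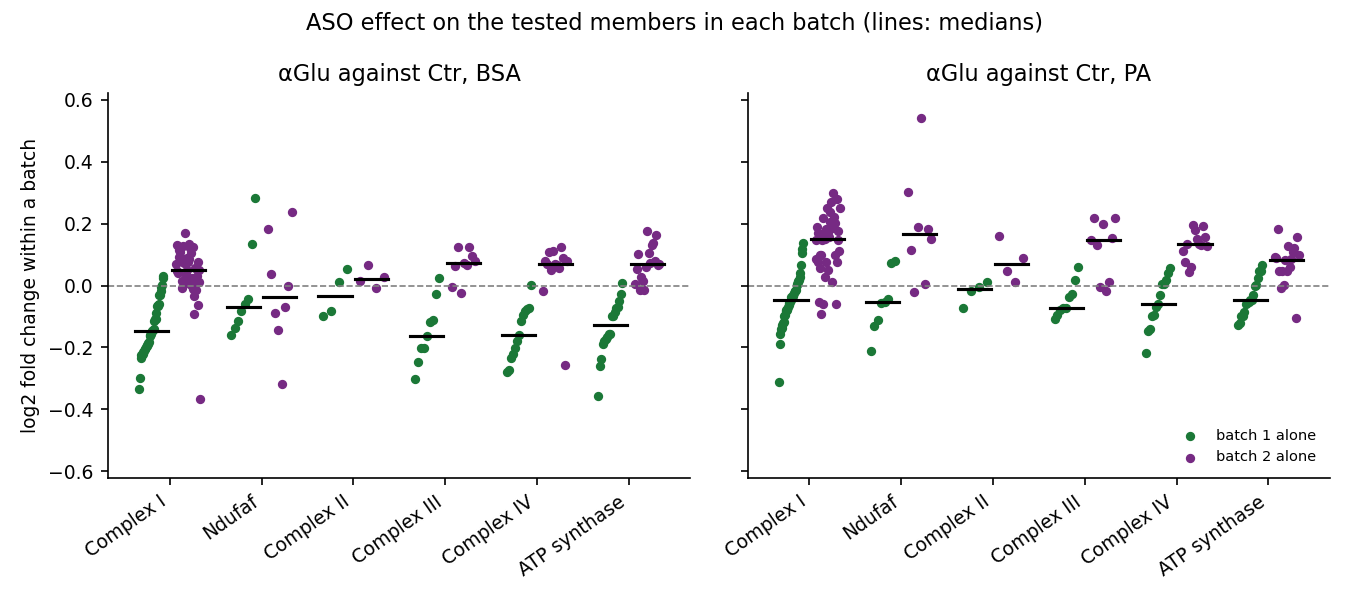
Log2 fold change of αGlu against Ctr for the tested members in batch 1 and in batch 2, in BSA and in PA, by complex, with lines at the medians. In both media the values lie lower in batch 1 (medians -0.14 and -0.05) than in batch 2 (0.07 and 0.13), and Atp5o_1 and, in batch 1, Ndufa4l2 lie outside the axis. Libraries S1 (batch 1, Ctr BSA) and S23 (batch 2, Ctr PA), which stood apart, are included.

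More members were called between the batches than with PA, in a comparison of 12 with 12 libraries where each PA comparison had 6 with 6. The median SE of the members was 0.06 between batches and 0.09 in either PA comparison. The members' median change with PA was 0.14 in Ctr and 0.18 in αGlu cells, so the higher count does not show a larger difference. Batch 2 had 50 of 91 members raised and 1 lowered relative to batch 1, with a median of 0.15, while 26.1% of all genes were raised and 25.4% lowered. Among the 497 genes of like length and count 41.2% were raised and 24.9% lowered, with a median of 0.05. The 24 members of that length and count had 45.8% raised and 0 lowered, with a median of 0.11. The raised members numbered 23 of 39 in complex I, 2 of 8 Ndufaf factors, 2 of 4 in complex II, 5 of 9 in complex III, 6 of 13 in complex IV and 12 of 18 in the ATP synthase, with all 5 small membrane subunits of the latter. The smallest p was that of Cox6a2, the heart and muscle isoform, at 3.77 to 8.07 CPM in the 12 libraries of batch 1 and 10.9 to 16.5 CPM in those of batch 2, without overlap. It was higher by 1.10 ± 0.09 (adjusted p = 8.4e-10), and it was the 1 member past the study's threshold, which 6.38% of all genes passed. Its partner Cox6a1 was higher by 0.16 ± 0.06 (adjusted p = 0.027).

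The next 4 were Sdhc (0.33 ± 0.03, adjusted p = 1.7e-08), Atp5g1 (0.45 ± 0.05, adjusted p = 1.4e-07), Ndufa4 (0.36 ± 0.05, adjusted p = 5.8e-07) and Ndufc1 (0.46 ± 0.06, adjusted p = 5.9e-07). The 1 lowered member was the supercomplex factor Cox7a2l (-0.16 ± 0.04, adjusted p = 0.0040), whose paralog Cox7a2 was raised by 0.31 ± 0.06 (adjusted p = 5.7e-05). Both redox subunits of complex III had values near 0, with -0.04 ± 0.05 for Cyc1 and -0.00 ± 0.04 for Uqcrfs1. The cell markers also differed between batches. All 10 β-cell markers were raised in batch 2 (median 0.54), all 8 acinar markers lowered (median -4.51), and 7 of 8 alpha, delta and PP cell markers lowered (median -0.55), and the 13 mitochondrially encoded subunits were all raised (median 0.45). The part of the cell types in the members' difference was not tested. Since each batch held the same number of libraries of every group, the batch entered the other comparisons as a term.

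Genes that serve the same pathway were read from lists beside the members. In PA against BSA in Ctr cells, 3 of 12 further complex I assembly factors were raised and 1 lowered, with Tmem126a (0.48 ± 0.08, adjusted p = 6.9e-05) and Timmdc1 (0.26 ± 0.07, adjusted p = 0.0080) of smallest p. Of the complex II factors 2 of 4 were raised, Sdhaf3 by 0.79 ± 0.16 (adjusted p = 6.3e-04) and Sdhaf1 by 0.20 ± 0.08 (adjusted p = 0.047). Of the complex III factors 3 of 6 were raised, among them Ttc19 (0.36 ± 0.06, adjusted p = 1.4e-04) and Lyrm7 (0.57 ± 0.13, adjusted p = 0.0013), which bear on the Rieske protein. Of the complex IV factors 9 of 25 were raised and 1 lowered, led by Coa3 (0.41 ± 0.06, adjusted p = 3.0e-05) and Lrpprc (0.23 ± 0.04, adjusted p = 4.9e-05), which guards mitochondrial mRNAs. Of the 5 ATP synthase factors 0 passed, with 0.15 ± 0.06 for Atpaf1 (adjusted p = 0.055) and -0.12 ± 0.05 for Oxa1l (adjusted p = 0.072). In αGlu cells the counts were 5 of 12 raised for complex I factors, 1 of 4 for complex II, 3 of 6 for complex III, 7 of 25 raised and 1 lowered for complex IV, and 2 of 5 for the ATP synthase.

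Larger changes stood upstream of the chain. Of 17 fatty-acid oxidation genes 12 were raised and 0 lowered in Ctr cells (median 0.52) and likewise 12 and 0 in αGlu cells (median 0.59). Cpt1a, which takes long-chain fatty acids into mitochondria, rose by 2.18 ± 0.08 in Ctr (adjusted p = 8.7e-16) and 2.25 in αGlu cells, and the carnitine carrier Slc25a20 by 1.45 ± 0.09 (adjusted p = 2.1e-11) and 1.43. Of 18 electron carrier and ubiquinone genes 6 were raised and 2 lowered in Ctr and 7 and 2 in αGlu cells. The electron-transferring flavoprotein, which hands electrons from β-oxidation to ubiquinone, had both subunits raised, Etfa by 0.46 ± 0.05 (adjusted p = 1.6e-07) and Etfb by 0.92 ± 0.13 (adjusted p = 7.4e-06) in Ctr cells. Of 13 tested regulators of mitochondrial biogenesis 2 were raised and 2 lowered in Ctr and 1 and 2 in αGlu cells. Ppargc1a, a coactivator of these genes, was raised by 0.93 ± 0.17 (adjusted p = 2.6e-04) in Ctr and 0.80 in αGlu cells (adjusted p = 0.0011). Gabpb1, a partner of the ETS factor GABPA, was lowered in both, with log2 fold changes of -0.33 and -0.33 (adjusted p = 0.0018 and 0.0022), and Nrf1 itself had 0.06 (adjusted p = 0.57) and 0.15 (adjusted p = 0.12).

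The mitochondrially encoded partners of these subunits were read in the same libraries. In Ctr cells 4 of 13 were raised by PA, all 13 being higher with a median of 0.30, among them mt-Co2 (0.30 ± 0.10, adjusted p = 0.033) and mt-Nd3 (0.38 ± 0.14, adjusted p = 0.037). These calls rested on S23. Without it 0 of 13 were raised and the median was 0.10, with 1 gene at an unadjusted p below 0.05, and without S1 and S23 the median was 0.02. In αGlu cells 0 of 13 passed, with a median of 0.06 and 0 at an unadjusted p below 0.05. The difference between the responses had a median of -0.23 over the 13 genes with 0 called and 0 at an unadjusted p below 0.05, and its median was -0.03 without S23. The 13 genes held 3.04% to 5.95% of the counts in Ctr BSA and 4.34% to 8.73% in Ctr PA, the upper end being S23.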

How the data were processed

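Polyadenylated mRNA of 24 libraries of dispersed mouse islet cells was sequenced from a stranded library kit, after RNA extraction with a column kit. The counts per gene were made by the authors in the QIAGEN RNA-seq Analysis Portal, with GRCm38 as the genome build in the submitters' processing notes, and deposited unnormalised. No source used here names the aligner or annotation. The deposited table also held TPM values computed by the authors per gene and library, which were used only for levels between genes, and 48 further columns of per-library values were not used. The 1 row without a gene held 0 counts.

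Counts were tested with edgeR 4.0.16 in R 4.3.3 (quasi-likelihood F-test, TMM scaling, genes kept by filterByExpr with a minimum count of 10), with group and batch as terms over all 24 libraries and Benjamini-Hochberg adjustment over 15916 genes. The SE is the absolute log2 fold change divided by the square root of F, and log2 CPM used a prior count of 2. The study's threshold, an absolute log2 fold change above 1 with unadjusted p below 0.05, was given beside it. Total counts ran from 18214719 to 35001979 per library. Alternatives were DESeq2 1.42.0, other scalings and filters, no batch term, each batch alone, the compared groups alone, surrogate variables (sva 3.50.0) and leaving out each library in turn, and after seeing the data a fit without S1 and S23, a fit with each group in each batch, and the 497 genes of like length and count. The test was tried on simulated counts.

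Named with values were, per comparison, the 5 called members of smallest p in each direction (the 2 of smallest unadjusted p where none was called), isoform sets, the largest change of each complex under PA in Ctr cells, members failing the filter, and up to 2 genes of each pathway list. Other members named singly, such as those lower with PA in αGlu cells, were chosen after their values were seen. Members and lists were chosen with earlier results of these data known. Gene positions came from GENCODE M21 and promoters from RefSeq. The values of 1 member are not reported here by name.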

Additional observations from a re-analysis of the deposited data

Results flagged for a closer look

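In groups of 6 libraries, a highest or lowest library was singled out where its gap to the nearest other library was more than 0.625 of the range of the group. Of 164 groups examined (the mean of each complex and each named member, in each of the 4 groups) 6 did so, and chance gives about 1 in 20. Library S23 of Ctr PA was the lowest for the mean log2 CPM of the Ndufaf assembly factors, at 2.56 with the next at 2.93, and for Ndufs7 at 13.6 CPM with the next at 24.3 CPM. Library S1 was the highest of Ctr BSA for Ndufs7, a core subunit of complex I, at 31.8 CPM with the next at 22.8 CPM. The other values were Cox5a in library S7 of Ctr PA at 42.6 CPM (next 33.7 CPM), Sdhd in library S11 of Ctr PA at 75.9 CPM (next 85.9 CPM) and Ndufaf5 in library S20 of αGlu PA at 8.05 CPM (next 5.92 CPM).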

How the results depend on the processing

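No member was lowered by PA in any setting tried, and 23 raised members in Ctr cells and 35 in αGlu cells became 22 and 33 with DESeq2. In Ctr cells the count of raised members was 12 with upper-quartile scaling, 4 with no batch term, 4 and 3 in batch 1 and batch 2 alone, 10 with only the 2 groups compared, 54 with 2 surrogate variables and 0 at the study's threshold, and 57 without S1 and S23, a choice made after seeing the data. The share of all genes raised was 13.7% with upper-quartile scaling, 6.95% with no batch term and 10.9% with only the 2 groups compared, against 13.2%, 4.4% and 11% of members, so in these fits and in the single batches the members showed no clear excess over all genes, while with 2 surrogate variables it was 18.9% against 59.3% and without S1 and S23 18% against 62.6%. In αGlu cells the count was 11 with no batch term, 5 and 7 in the single batches, 57 with only the 2 groups compared, 59 with 2 surrogate variables and 0 at the study's threshold. Leaving out 1 library gave 9 to 37 in Ctr cells and 20 to 41 in αGlu cells. For αGlu against Ctr in BSA the 0 raised members became 1 at the study's threshold. Between batches the 50 raised members became 27 with 2 surrogate variables and 1 at the study's threshold, and the 1 lowered member became 5 with library totals alone, 0 with 2 surrogate variables and 0 at the study's threshold, with 1 to 3 when 1 library was left out (3 without Ctr PA library S15). The median batch difference was 0.36 with 2 surrogate variables. Fewer libraries entered the single-batch fits, and the cause was not tested for the other settings. With library totals alone the median of all genes was 0.04 for PA in Ctr cells and 0.04 for αGlu in BSA, and the members' median was then 0.17 for PA in Ctr cells and 0.00 for αGlu in BSA. For the 10 strongest values of single members under PA, 105 alternatives kept direction and side of the threshold, 15 kept the direction alone and 0 reversed. In αGlu cells the members' share stayed above that of all genes in these fits, 12.1% against 6.57% with no batch term being the lowest outside the single batches. No paired analysis was possible because the groups share no replicate numbers and no label says which libraries came from the same animals. Depth limits the members at few counts, Atp5o_1, Cox6b2 and Ndufa4l2 among those tested.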
